A study of Mus musculus with 9 samples.

Results

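The transcription factor genes Batf, Batf3, Irf4, Irf8, Bach2, Jun, Junb, Jund, Fosl1 and Fosl2 were followed in newly made RNA of mouse CD8+ T cells, the T lymphocytes that kill infected or transformed cells. They were taken by gene symbol and are 10 of the 37022 genes that the deposited tables could be matched to. The study looked for changes of nascent transcription that go with exhaustion, a state of reduced function that T cells enter when stimulation does not end, and for the part that the kinase MEK plays in them. Its 9 libraries fall into 3 groups of 3, which the labels call Acute, Chronic and ChronicMEKi: cells stimulated acutely, stimulated chronically, or stimulated chronically while MEK was inhibited. For every library, 5-ethynyl uridine was given to live cells at 0.2 mM over 30 minutes, and RNA that had taken up this uridine analogue was captured on beads and sequenced from both ends, 100 bases a read. The mouse strain and age, the stimulus, its duration and the inhibitor are not given in the sources used here, and nothing says whether libraries of a group came from separate animals or cultures. The p-values below therefore measure the spread between these libraries, which may be technical.

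As background, the JUN and FOS-like proteins (JUN, JUNB and JUND; FOSL1 and FOSL2) are basic leucine zipper proteins that bind DNA as dimers, together called AP-1, and the MAP kinase cascade in which MEK acts raises both their synthesis and their stability after T cell receptor signalling. BATF and BATF3 are short members of the same class that pair with JUN proteins and recruit IRF4 or IRF8 to composite AP-1 and IRF sites, which the T cell receptor uses to set effector and exhaustion programmes. BACH2 binds similar sites as a repressor, restrains effector genes and helps T cells keep a memory or stem-like state.

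Promoter sequence of the members is shown first for the 5 whose results the text turns on: Batf and Irf4, the BATF-IRF partners with the widest range between groups, Junb and Jun as a JUN gene that passed the test and one that did not, and Irf8 as the factor that moved against its relative Irf4. The sequences are RefSeq promoter windows (GRCm38.p6), each cut to the part upstream of the start of the analysed transcript, 5′ to 3′ on the gene's strand. Capitals mark matches to the motifs named after them.

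Batf, chr12:85686470-85686668, plus strand: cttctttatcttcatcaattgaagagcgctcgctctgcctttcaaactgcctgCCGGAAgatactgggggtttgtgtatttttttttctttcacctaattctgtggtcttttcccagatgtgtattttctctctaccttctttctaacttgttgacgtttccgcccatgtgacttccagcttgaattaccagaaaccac

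Irf4, chr13:30748983-30749225, plus strand: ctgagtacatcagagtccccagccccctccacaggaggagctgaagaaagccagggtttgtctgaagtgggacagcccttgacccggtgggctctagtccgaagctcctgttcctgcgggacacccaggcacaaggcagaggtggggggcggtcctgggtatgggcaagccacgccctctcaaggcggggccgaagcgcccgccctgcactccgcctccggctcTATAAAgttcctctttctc

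Irf8, chr8:120736108-120736357, plus strand: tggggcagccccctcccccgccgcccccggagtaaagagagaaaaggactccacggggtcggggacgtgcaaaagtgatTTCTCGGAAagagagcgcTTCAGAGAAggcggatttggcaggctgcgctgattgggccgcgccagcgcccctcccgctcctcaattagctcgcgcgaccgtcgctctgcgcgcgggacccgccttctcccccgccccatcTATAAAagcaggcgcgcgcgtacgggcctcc

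Junb, chr8:84978719-84978998, minus strand: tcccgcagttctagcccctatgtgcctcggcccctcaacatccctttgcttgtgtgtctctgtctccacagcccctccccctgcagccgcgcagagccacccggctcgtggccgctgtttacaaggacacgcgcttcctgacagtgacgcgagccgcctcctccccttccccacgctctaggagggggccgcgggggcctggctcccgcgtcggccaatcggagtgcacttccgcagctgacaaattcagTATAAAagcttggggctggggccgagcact

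Jun, chr4:95052223-95052472, minus strand: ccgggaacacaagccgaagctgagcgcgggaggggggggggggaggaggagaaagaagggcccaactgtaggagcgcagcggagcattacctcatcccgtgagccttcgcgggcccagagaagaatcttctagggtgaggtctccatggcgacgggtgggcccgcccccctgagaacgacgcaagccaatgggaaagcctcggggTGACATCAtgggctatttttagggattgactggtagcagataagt

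In these stretches the capitals mark CCGGAA, the core of sites for ETS factors, in Batf. They mark TATAAA, the TATA box, in Irf4, Irf8 and Junb, starting 19, 31 and 30 bases before the transcript start, respectively. In Irf8 they also mark 2 copies of TTCNNNGAA, the STAT site, and in Jun the letters TGACATCA, an AP-1-like site known in this gene. A set of 7 motifs was searched on both strands in 10 windows of 300 bases, from 250 bases before to 50 after the RefSeq start, that belong to 9 members (Irf8 has 2 starts, and Fosl1 was not matched). The AP-1 site TGANTCA occurred in none of the 10 windows and in 7.81% of all 32851 windows of that length, and TGACGTCA, the CRE, occurred in 1.79% of them. TGACATCA was in 3.62% of all windows, TATAAA in 13.6%, CCGGAA in 14.9%, TTCNNNGAA in 8.3% and the IRF site, written as GAAA, NN and GAAA in a row, in 3.44%. TTCNNNGAA also occurred in the windows of Batf3 and Bach2, CCGGAA in that of Bach2 and the IRF site in that of Fosl2. The RefSeq starts of these windows were not the starts of the analysed transcripts. They were 32417435 against 32238804 for Bach2, 191098414 against 191097880 for Batf3, and 32136472 against 32135801 for Fosl2. These are letter matches in one window per start and say nothing of binding.

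Values below are scaled signal: the authors' signal summed over a transcript's gene body, or over its pause region near the transcription start, brought to a common scale across libraries. Signal over a region also grows with its length, so levels are compared between genes only per kilobase of annotated transcript span. A gene was called where limma's adjusted p was under 0.05 over all genes tested. Summed gene-body signal was 48600000 to 52220000 per library, but depth in reads is unknown. Ribosomal RNA-like rows held 19.1 to 22.3% of it in acute, 34.2 to 40.6% in chronic and 29 to 36.1% in ChronicMEKi libraries. Across genes, libraries of one group correlated at 0.959 to 0.984 and those of different groups at 0.91 to 0.954. In bulk libraries such as these, fewer cells making a transcript and less transcript per cell cannot be told apart.

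All 7 genes of a list for MEK-ERK output fell under MEK inhibition, with a median log2 fold change of -2.58 between ChronicMEKi and chronic libraries. Of all genes tested, 7.65% were called lower in this comparison. Etv4, a gene of this list, had signals of 99.2, 128.2 and 116.9 in chronic and of 16, 30.6 and 8.33 in ChronicMEKi libraries. Without its chronic libraries it would not have had enough signal to be tested. Its fall therefore rests on the group that let it be tested. Dusp6, a phosphatase of ERK, had signals of 2379, 2315 and 2491 in chronic and of 210.7, 207.9 and 192.7 in ChronicMEKi libraries, 11.5-fold lower.

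Of the 10 members, 6 rose and 2 fell in gene-body signal between acute and chronic libraries, where 33.9% of the 15942 genes tested were called (18% higher and 15.9% lower). Batf, Batf3, Irf4, Junb, Fosl1 and Fosl2 rose, Irf8 and Bach2 fell, and Jun and Jund did not pass the test. With library totals as the scale, 1096 genes were higher and 6846 lower in place of 2875 and 2528, and the members' calls were 6 and 3, Jun being the further one. Under MEK inhibition 6 members fell and 1 rose relative to chronic libraries, where 17.6% of all genes were called (9.93% higher and 7.65% lower). Batf, Irf4, Fosl1, Junb, Fosl2 and Bach2 fell, Irf8 rose, and Batf3, Jun and Jund did not pass the test. The median log2 fold change of the 10 members was 1.07 between chronic and acute libraries, against -0.02 over all genes, and -0.53 between ChronicMEKi and chronic libraries, against 0.04. These comparisons share the chronic libraries, so their values are given side by side and not as independent evidence.

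**Figure D1:**
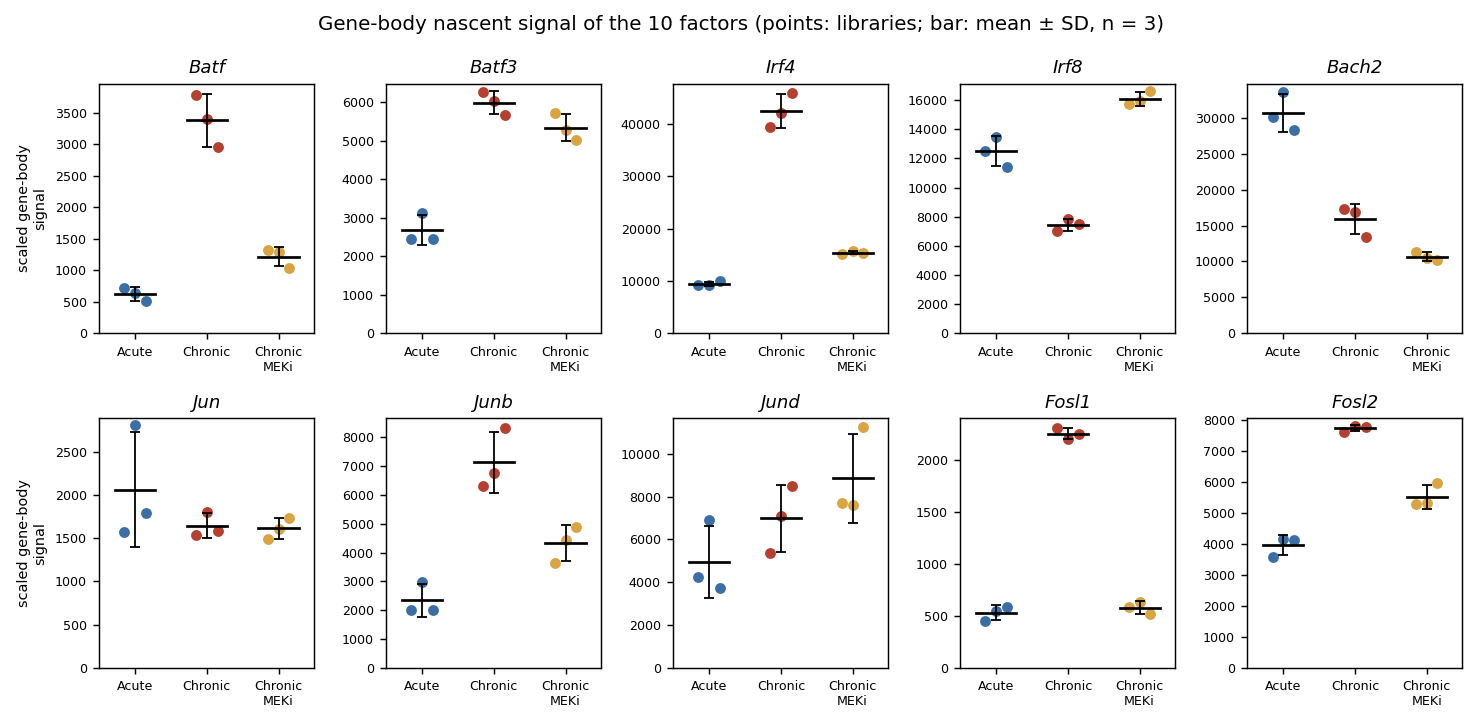
Scaled gene-body signal (linear axis from 0) of the 10 members in each library, with 3 points per group and a bar at the mean ± SD. Batf, Irf4, Junb, Fosl1 and Fosl2 were highest in the 3 chronic libraries, Irf8 was lowest there (6989 to 7819), and the groups of Jun overlapped.

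Batf, which lacks an activation domain of its own and depends on partners, had gene-body signals of 717.8, 643.1 and 505.5 in acute libraries. It had 3793, 3399 and 2955 in chronic and 1319, 1292 and 1040 in ChronicMEKi libraries. The 3 groups were fully separate, with ChronicMEKi libraries between the others. Batf was 5.43-fold higher in chronic than in acute libraries (log2 fold change 2.44, SE 0.15, limma adjusted p = 4.87e-10), the largest rise among the members. It was 2.77-fold lower in ChronicMEKi than in chronic libraries (-1.47, SE 0.15, limma adjusted p = 9.75e-07) and stayed 1.96-fold above acute libraries (0.97, SE 0.15, limma adjusted p = 8.19e-05). Its transcript covers chr12:85686669-85709087 (22.4 kb, GRCm38), and no other annotated gene overlaps it.

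Irf4, the IRF whose dose tracks the strength of T cell receptor signalling, showed the same order of groups at a higher level. Its gene-body signals were 9246, 9233 and 9877 in acute, 39522, 42054 and 45902 in chronic, and 15055, 15671 and 15306 in ChronicMEKi libraries. The spread within each group was small beside the gaps between groups (9452 ± 367.9, 42493 ± 3213 and 15344 ± 310.1, mean ± SD, n = 3). Irf4 was 4.49-fold higher in chronic than in acute libraries (log2 fold change 2.17, SE 0.081, limma adjusted p = 1.14e-12) and 2.76-fold lower in ChronicMEKi than in chronic libraries (-1.47, SE 0.081, limma adjusted p = 5.74e-10). ChronicMEKi libraries stayed 1.62-fold above acute ones (0.7, SE 0.081, limma adjusted p = 3.52e-06). Per kilobase of its span (chr13:30749226-30766976, 17.8 kb), chronic Irf4 signal was 2394, against 150.9 for Batf.

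Batf3, a close relative of BATF best known in cross-presenting dendritic cells and also made by activated T cells, rose under chronic stimulation and did not pass the test for MEK inhibition. Its signals were 2460, 3120 and 2456 in acute, 6266, 6035 and 5670 in chronic, and 5720, 5283 and 5021 in ChronicMEKi libraries. Chronic and ChronicMEKi libraries overlapped, and both lay above every acute library. The rise was 2.25-fold (log2 fold change 1.17, SE 0.1, limma adjusted p = 6.94e-08), the difference under MEK inhibition was -0.17 (SE 0.1, limma adjusted p = 0.324), and ChronicMEKi libraries were 2-fold above acute ones (1, SE 0.1, limma adjusted p = 9.03e-07). Batf3 (chr1:191097880-191108945) is not overlapped by another annotated gene.

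Irf8, the closest relative of IRF4 and a BATF partner in lymphoid and dendritic cells, moved the other way. Its signals were 12519, 13505 and 11435 in acute, 6989, 7819 and 7492 in chronic, and 15756, 15933 and 16659 in ChronicMEKi libraries. Chronic libraries were the lowest and ChronicMEKi libraries the highest, with no overlap between any groups. Irf8 was 1.68-fold lower in chronic than in acute libraries (log2 fold change -0.75, SE 0.086, limma adjusted p = 1.88e-06) and 2.17-fold higher in ChronicMEKi than in chronic libraries (1.12, SE 0.086, limma adjusted p = 2.95e-08). Relative to acute libraries the ChronicMEKi signal was 1.29-fold higher (0.37, SE 0.086, limma adjusted p = 0.00335). This last call was lost in 6 of 21 alternatives: without acute replicate 3 (0.25, limma adjusted p = 0.0665), without a filter (0.31, limma adjusted p = 0.125) and under 4 other scalings. These were library totals (-0.01, limma adjusted p = 0.94), the deposited scale (0.03, limma adjusted p = 0.874), totals without ribosomal RNA-like rows (0.2, limma adjusted p = 0.0822) and the trimmed mean over all genes with signal (0.31, limma adjusted p = 0.0878). The predicted gene Gm20388 overlaps Irf8 (chr8:120736358-120756694) on the same strand, so its transcripts could share this signal.

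Per kilobase of span, Irf8 signal (614) was above Irf4 signal (532.5) in acute libraries, and in chronic libraries Irf4 signal (2394) stood above Irf8 signal (365.5). In ChronicMEKi libraries the levels were 864.4 for Irf4 and 792.4 for Irf8.

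Bach2, the repressor, had signals of 30222, 33655 and 28382 in acute, 17261, 16924 and 13472 in chronic, and 11323, 10476 and 10177 in ChronicMEKi libraries. Unlike the other factor that fell under chronic stimulation, Irf8, it was lowest in the ChronicMEKi libraries, and its 3 groups did not overlap. Bach2 was 1.94-fold lower in chronic than in acute libraries (log2 fold change -0.96, SE 0.1, limma adjusted p = 5.91e-07), and 1.48-fold lower again in ChronicMEKi than in chronic libraries (-0.57, SE 0.1, limma adjusted p = 0.000459). Between ChronicMEKi and acute libraries it was 2.88-fold lower (-1.53, SE 0.1, limma adjusted p = 3.27e-09). Its transcript spans 347.3 kb (chr4:32238804-32586104), so a large summed signal came to only 30.7 to 88.5 per kilobase, and Bach2it1, Gm24371 and the opposite-strand gene Bach2os lie within it.

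Because Irf8, Batf3, Irf4 and Bach2 are also made by dendritic and B cells, markers of those cells were summed. Of 5 dendritic markers, Flt3 and Zbtb46 passed the filter on low signal, and the 5 summed to 242.5 to 333.6 in acute, 350.7 to 402.7 in chronic and 177.8 to 261.4 in ChronicMEKi libraries. Zbtb46 signals were 213.2, 182.9 and 186.9 in acute, 262.7, 244.3 and 216.9 in chronic, and 141.8, 157.9 and 183.3 in ChronicMEKi libraries. They were thus highest in the chronic libraries. Flt3 signals were 46.7, 21.6 and 69.3, then 45.1, 18.1 and 25.9, and then 12, 57.7 and 19.8, and neither gene was called in any comparison. H2-Aa, an antigen-presenting molecule of dendritic cells, was listed at 0 in 2 chronic libraries and at no more than 28.8 in any library. Xcr1, a receptor of the cross-presenting dendritic cells that need BATF3, went the other way, with 4.48, 1.31 and 13.6 in acute, 16.9, 75 and 69.7 in chronic, and 1.6, 0 and 5.21 in ChronicMEKi libraries; it did not pass the filter and was not tested. Of the B cell markers, Cd79a, a chain of the B cell receptor complex, and Pax5, the B lineage factor, passed. Cd79a signal was 290.8 to 375 in acute, 63.1 to 154.8 in chronic and 71.9 to 196.9 in ChronicMEKi libraries, and Pax5 signal was 96.4 to 202.5, 42.3 to 99.2 and 44.1 to 207.1. The macrophage and monocyte markers, 2 of 4 passing, summed to 160.6 to 224.8, 102.8 to 170.9 and 89.7 to 213.9. No NK cell marker passed, with sums of at most 54.2. The CD4 T cell marker Cd4 summed to 383.2 to 495.6, 143.9 to 343.8 and 101 to 141. The part of such cells in the members' values was not tested. The 5 CD8 T cell markers all passed, but their sum was also lower in chronic libraries (11929 to 13103 in acute, 7345 to 8014 in chronic, 10320 to 12000 in ChronicMEKi). Cd8a, a chain of the co-receptor, was among the 3 that fell, with signals of 3653, 4340 and 4189 in acute, 832, 902.2 and 1171 in chronic, and 2997, 2580 and 3064 in ChronicMEKi libraries, a 4.21-fold fall under chronic stimulation (log2 fold change -2.07, limma).

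Among the JUN genes, Junb passed the gene-body test in all 3 comparisons, and Jun and Jund in none. JUNB is a main partner of BATF in T cells. Its gene-body signals were 2016, 2993 and 2010 in acute, 6325, 6763 and 8335 in chronic, and 3650, 4434 and 4896 in ChronicMEKi libraries. The groups were separate, with ChronicMEKi libraries in the middle. Junb was 3.08-fold higher in chronic than in acute libraries (log2 fold change 1.62, SE 0.16, limma adjusted p = 1.2e-06), 1.65-fold lower in ChronicMEKi than in chronic libraries (-0.72, SE 0.16, limma adjusted p = 0.00439), and 1.87-fold higher in ChronicMEKi than in acute libraries (0.9, SE 0.16, limma adjusted p = 0.000555). Junb (chr8:84976910-84978718) is overlapped by Prdx2 on the opposite strand, and the use of strand is not stated. A second, weaker transcript row of Junb gave no call in any comparison (0.26, -0.4 and -0.15), and without trend and robust moderation the fall under MEK inhibition missed the threshold (-0.72, limma adjusted p = 0.0519).

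Jun, the founding AP-1 member whose raised expression is known to counter exhaustion in engineered T cells, had signals of 1574, 2817 and 1792 in acute, 1542, 1807 and 1588 in chronic, and 1497, 1612 and 1738 in ChronicMEKi libraries. The groups overlapped, and acute replicate 2 was above all 8 others. The log2 fold change was -0.28 (SE 0.17, limma adjusted p = 0.214) between chronic and acute, -0.03 (SE 0.17, limma adjusted p = 0.949) between ChronicMEKi and chronic, and -0.31 (SE 0.17, limma adjusted p = 0.204) between ChronicMEKi and acute libraries. Without acute replicate 1 Jun was called lower in chronic than in acute libraries (-0.46, limma adjusted p = 0.0465) and in ChronicMEKi libraries (-0.54, limma adjusted p = 0.0267). No other single library gave a call when left out. Over all such fits the values ranged from -0.46 to -0.02 and from -0.54 to -0.11 (limma adjusted p up to 0.908 and 0.568). With library totals as the scale Jun was also called lower in both comparisons (-0.77 and -0.69), while the median of all genes shifted by -0.49 and -0.38. The deposited scale (-0.75 and -0.65) and totals without ribosomal RNA-like rows (-0.44, limma adjusted p = 0.0286, and -0.48, limma adjusted p = 0.0227) gave the same calls, the latter with median shifts of -0.16 and -0.17. Junos, on the opposite strand, overlaps Jun (chr4:95049034-95052222).

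Jund, the JUN gene that is made in resting cells, had signals of 4241, 6884 and 3746 in acute, 5365, 7092 and 8508 in chronic, and 7700, 7591 and 11254 in ChronicMEKi libraries. Acute and chronic libraries overlapped, and the ChronicMEKi libraries lay above every acute one. The differences did not pass the test: 0.52 (SE 0.28, limma adjusted p = 0.208) between chronic and acute, 0.34 (SE 0.28, limma adjusted p = 0.515) between ChronicMEKi and chronic, and 0.86 (SE 0.28, limma adjusted p = 0.0657) between ChronicMEKi and acute libraries. Without acute replicate 2, which was the highest acute library for 7 of the 10 members, Jund was called higher in chronic (0.79, limma adjusted p = 0.0368) and in ChronicMEKi libraries (1.07, limma adjusted p = 0.0134) than in acute ones. With all libraries, ChronicMEKi against acute was also called with library totals (0.48, limma adjusted p = 0.029) and on the deposited scale (0.52, limma adjusted p = 0.0301). Jund (chr8:70698949-70700616, overlapped by Gm11175 on the opposite strand) had the highest signal per kilobase of the members in all 3 groups, 2972 in acute, 4190 in chronic and 5305 in ChronicMEKi libraries. Junb came next in all 3 (1293, 3948 and 2392), and Jun stood at 646.4, 516.1 and 506.6. The spans of these genes are the shortest among the members (1668 bp for Jund, 1809 bp for Junb and 3189 bp for Jun). Whether span length shapes this ranking was not tested.

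Fosl1, which encodes FRA1, a FOS-like protein made and stabilised under ERK signalling, rose under chronic stimulation and was lower again under MEK inhibition. Its signals were 454, 552 and 588.4 in acute, 2313, 2206 and 2252 in chronic, and 587.2, 636.5 and 520.8 in ChronicMEKi libraries. The chronic libraries stood far above the others, and acute and ChronicMEKi libraries overlapped. Fosl1 was 4.24-fold higher in chronic than in acute libraries (log2 fold change 2.08, SE 0.15, limma adjusted p = 3.14e-09) and 3.87-fold lower in ChronicMEKi than in chronic libraries (-1.95, SE 0.15, limma adjusted p = 2.22e-08), the largest fall among the members. ChronicMEKi and acute libraries differed by 0.13 (SE 0.15, limma adjusted p = 0.564), which does not show that they were equal. Ccdc85b overlaps Fosl1 (chr19:5447547-5455946) on the opposite strand.

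Fosl2, which encodes FRA2, followed with smaller changes. Its signals were 3575, 4163 and 4126 in acute, 7614, 7807 and 7771 in chronic, and 5287, 5305 and 5956 in ChronicMEKi libraries. Its 3 groups did not overlap, and the ChronicMEKi libraries lay between the others. Fosl2 was 1.96-fold higher in chronic than in acute libraries (log2 fold change 0.97, SE 0.091, limma adjusted p = 1.39e-07) and 1.4-fold lower in ChronicMEKi than in chronic libraries (-0.49, SE 0.091, limma adjusted p = 0.000726). It was 1.4-fold higher in ChronicMEKi than in acute libraries (0.48, SE 0.091, limma adjusted p = 0.000615), a call that was lost with library totals (0.1, limma adjusted p = 0.566) and on the deposited scale (0.14, limma adjusted p = 0.401). Fosl2 (chr5:32135801-32157842) has no overlapping gene.

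**Figure D2:**
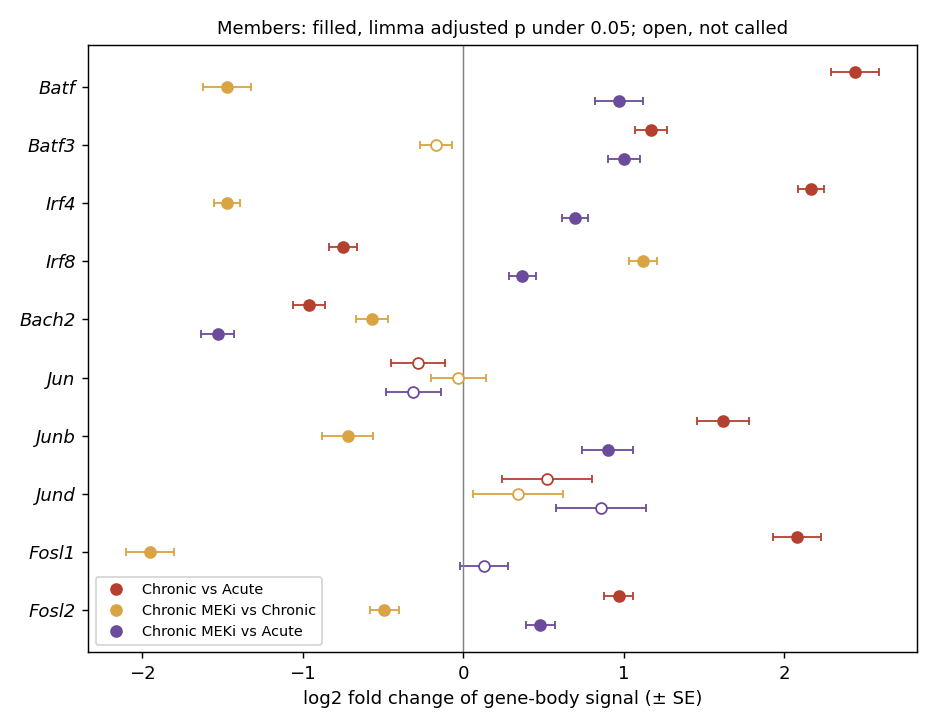
Log2 fold change of gene-body signal (± SE, from limma) of each member in the 3 comparisons, with filled points where the adjusted p was under 0.05 and open points elsewhere. Irf8 lies on the opposite side of 0 from Irf4 in both comparisons with chronic libraries (-0.75 against 2.17, and 1.12 against -1.47), and Bach2 lies below 0 in all 3.

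Between ChronicMEKi and acute libraries, 6 members were higher and 1 was lower, where 25.8% of all genes were called (14.4% higher and 11.5% lower). Batf, Batf3, Irf4, Irf8, Junb and Fosl2 were higher, Bach2 was lower, and Jun, Jund and Fosl1 did not pass the test. The groups did not overlap for 8 members, which held for 42% of all genes. In the other comparisons they did not overlap for 8 members between chronic and acute libraries (44.2% of all genes) and for 7 between ChronicMEKi and chronic libraries (32.2%). In order of level, Batf, Irf4, Junb and Fosl2 ran from acute through ChronicMEKi to chronic libraries with a call at each step. For Batf3 ChronicMEKi and chronic libraries, and for Fosl1 acute and ChronicMEKi libraries, were neighbours that did not differ beyond their spread. Irf8 ran from chronic through acute to ChronicMEKi, and Bach2 from ChronicMEKi through chronic to acute libraries.

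The pause region, where RNA polymerase often waits before it enters the gene body, gave the same direction for the strongest changes. Of the 8 members that passed the filter on low signal there, 4 were higher and 2 lower in chronic than in acute libraries, where 10.7% of 7678 genes were called (5.37% higher and 5.35% lower). Bach2 and Fosl1 were not tested there, with pause-region signals of at most 74.2 and 31.5 in any library. Batf pause-region signal was 68, 17.2 and 14.8 in acute, 281.3, 373.6 and 311.9 in chronic, and 67.3, 70.3 and 78.5 in ChronicMEKi libraries. It was higher in chronic than in acute libraries by 3.35 on the log2 scale (SE 0.41, limma adjusted p = 7.86e-07) and lower in ChronicMEKi than in chronic libraries (-2.08, SE 0.41, limma adjusted p = 0.00222). Acute replicate 1 carried most of the acute Batf signal there, and the level in the others was low enough that the pseudocount shrinks the fold change.

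Irf4 rose in the pause region, from 176.6, 122.3 and 130.5 in acute to 446.6, 553.4 and 636.9 in chronic libraries (log2 fold change 1.9, SE 0.25, limma adjusted p = 3.11e-06). It was back at 215.2, 194.2 and 140.7 in ChronicMEKi libraries (-1.55 against chronic, SE 0.25, limma adjusted p = 0.000184), which overlapped the acute ones. Batf3 (2.29) and Junb (1.06) were also higher and Irf8 (-0.59) lower in chronic than in acute libraries. Jun, with no call in the gene body, was called lower in the pause region, from 338.1, 375.7 and 437.8 in acute to 200.8, 325.7 and 144.9 in chronic libraries (-0.83, SE 0.26, limma adjusted p = 0.0366). Jund (0.16) and Fosl2 (0.19) did not pass the test. The calls of Irf8 and Jun were near the threshold. That of Irf8 was lost without acute replicate 2 (-0.42, limma adjusted p = 0.158), any chronic library or ChronicMEKi replicate 1 or 2. That of Jun was lost without any acute library or chronic replicate 1 or 3 (-0.57, limma adjusted p = 0.212, without replicate 3). With library totals as the scale Junb was not called (0.46, limma adjusted p = 0.071).

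Under MEK inhibition 3 members were lower and 1 was higher in the pause region than in chronic libraries, where 3% of genes were called (1.56% higher and 1.43% lower). Besides Batf and Irf4, Junb fell, from 2839, 3437 and 3650 to 1524, 2008 and 2192 (log2 fold change -0.8, SE 0.17, limma adjusted p = 0.007). Irf8 rose, from 626.4, 665.5 and 655 to 1172, 1119 and 953.4 (0.73, SE 0.19, limma adjusted p = 0.0262). The call of Junb was lost without chronic replicate 2 (-0.76, limma adjusted p = 0.0575) or ChronicMEKi replicate 1 (-0.64, limma adjusted p = 0.112). It was also lost with library totals (-0.54, limma adjusted p = 0.115), on the deposited scale (-0.6, limma adjusted p = 0.122) and without trend and robust moderation (-0.8, limma adjusted p = 0.207). That of Irf8 was lost without any chronic library or ChronicMEKi replicate 1 or 2 (0.67, limma adjusted p = 0.158, without replicate 1). Batf3 (-0.9), Jun (-0.1), Jund (0.44) and Fosl2 (0.3) did not pass the test.

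Between ChronicMEKi and acute libraries, where 5.95% of genes were called in the pause region (3.44% higher and 2.51% lower), Batf3 was higher (1.4, SE 0.42, limma adjusted p = 0.0444) and Jun lower (-0.94, SE 0.26, limma adjusted p = 0.0273), while the other 6 members did not pass the test. The call of Batf3 was lost without any 1 library other than acute replicate 2 or chronic replicate 3 (limma adjusted p up to 0.228), and that of Jun without acute replicate 3 or any ChronicMEKi library (limma adjusted p up to 0.114). Batf was called without acute replicate 1 (1.87, limma adjusted p = 0.00352, against 1.27 and 0.0611 with it). Jund was called without acute replicate 2 (0.72, limma adjusted p = 0.0404, against 0.6 and 0.0712 with it) and without chronic replicate 3 (0.6, limma adjusted p = 0.0484).

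**Figure D3:**
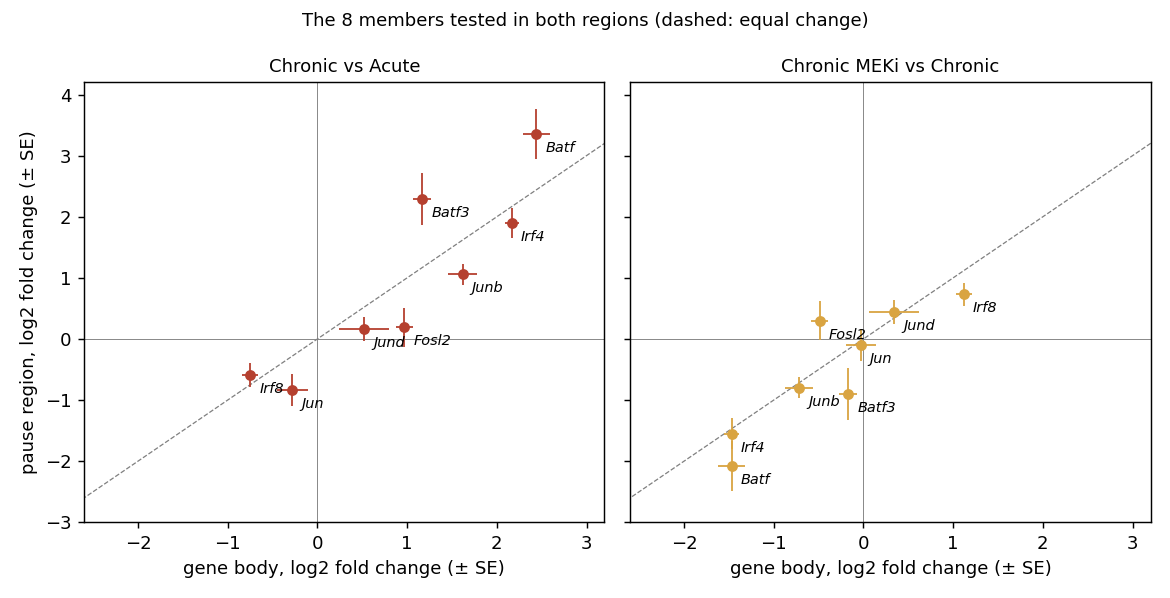
Log2 fold change (± SE, from limma) in the gene body (x axis) and the pause region (y axis) for the 8 members tested in both, between chronic and acute libraries (left) and ChronicMEKi and chronic libraries (right). The dashed line marks equal change; Batf is highest on the left (2.44 and 3.35), and Batf and Irf4 are lowest on the right.

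Pausing was taken as log2 pause-region minus log2 gene-body signal in each library. The captured RNA was labelled over 30 minutes, so this ratio describes labelled RNA and does not locate waiting polymerase. Of 7413 genes tested by limma, 0 were called in each comparison (749, 394 and 591 had an unadjusted p under 0.05 between chronic and acute, ChronicMEKi and chronic, and ChronicMEKi and acute libraries). The largest differences among the members between chronic and acute libraries were those of Batf3 (1.13, SE 0.42, limma adjusted p = 0.42), Batf (0.91, limma adjusted p = 0.489) and Fosl2 (-0.78, limma adjusted p = 0.526). Junb kept the highest pause-region signal relative to its gene body, -0.55 ± 0.5 in acute, -1.11 ± 0.11 in chronic and -1.19 ± 0.063 in ChronicMEKi libraries (mean ± SD, n = 3). Bach2 had the lowest, -9.05 ± 0.42, -8.61 ± 0.37 and -8.88 ± 0.27. It was not tested for pausing, and its ratio rests on weak pause-region signal (at most 74.2 in any library). The median of all genes lay between -3.75 and -3.63 in every library. These values also depend on the lengths of the regions, which differ between genes.

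Other AP-1 and basic leucine zipper partners were read in a list of 13 genes, of which 11 passed the gene-body filter. In chronic against acute libraries 6 of them rose and 3 fell, with a median log2 fold change of 0.58. Of all genes, 18% rose and 15.9% fell. Atf3, a stress-induced AP-1 partner (2.19), Jdp2, a JUN-dimerising repressor (1.29), and Maf, which acts in Il10 control (0.96), rose, and Fos fell. Fos, the classic immediate-early partner of JUN, had signals of 235, 139 and 221.5 in acute, 19.2, 16.9 and 11.2 in chronic, and 4.01, 27.2 and 8.33 in ChronicMEKi libraries. It fell by 3.28 on the log2 scale in chronic ones (SE 0.6, limma adjusted p = 0.000331). Fos passed the filter only through its acute libraries. Elsewhere its signal was at most 27.2, low enough for the pseudocount of 5 to shrink the fold change. Its calls against acute libraries therefore rest on the group that let it be tested. Fosb and Batf2 did not pass the filter.

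Under MEK inhibition 1 of the 11 partners rose and 5 fell, beside 9.93% and 7.65% of all genes. The one that rose was Jdp2, with signals of 598.7, 732.2 and 589.1 in acute, 1686, 1578 and 1441 in chronic, and 5191, 5111 and 4322 in ChronicMEKi libraries. Its signal was thus higher at each step, 3.1-fold between chronic and ChronicMEKi libraries (log2 fold change 1.63, SE 0.12, limma adjusted p = 2.54e-08). Maf (-1.11), Atf3 (-0.86) and Maff (-0.79), a small MAF protein, fell. Against acute libraries, 3 partners were higher and 3 lower in ChronicMEKi libraries, beside 14.4% and 11.5% of all genes. Among these partners were Jdp2 at 2.92, Atf3 at 1.33, Maff at -1.34 and Fos at -3.66.

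The other IRF genes, 7 of 7 tested, held no rise between chronic and acute libraries, where 18% of all genes rose and 15.9% fell. Irf7 (-1.73, limma adjusted p = 0.00476), Irf9 (-0.9, limma adjusted p = 0.000117) and Irf1 (-0.8, limma adjusted p = 2.24e-05), which act in interferon responses, fell, as Irf8 did. Irf1 signals were 6973, 7344 and 6903 in acute, 3680, 3541 and 5107 in chronic, and 7889, 8042 and 8498 in ChronicMEKi libraries. Under MEK inhibition 3 of the 7 rose, Irf7 (1.43, limma adjusted p = 0.0303), Irf1 (1.01, limma adjusted p = 3.67e-06) and Irf9 (0.44, limma adjusted p = 0.0469), and Irf2 fell (-0.41, limma adjusted p = 0.00643). Of all genes, 9.93% rose and 7.65% fell there. The call of Irf9 was lost without any 1 library other than chronic replicate 3 (limma adjusted p up to 0.195), and that of Irf7 without any ChronicMEKi library or chronic replicate 2 or 3 (0.85, limma adjusted p = 0.133, without replicate 3). With library totals Irf2 was not called (-0.3, limma adjusted p = 0.172). Relative to acute libraries, Irf2 (-0.56) and Irf9 (-0.46) were lower in ChronicMEKi libraries, beside 11.5% of all genes, and 5 did not pass the test. Irf9 was not called without acute replicate 2 or any ChronicMEKi library (limma adjusted p up to 0.0865).

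**Figure D4:**
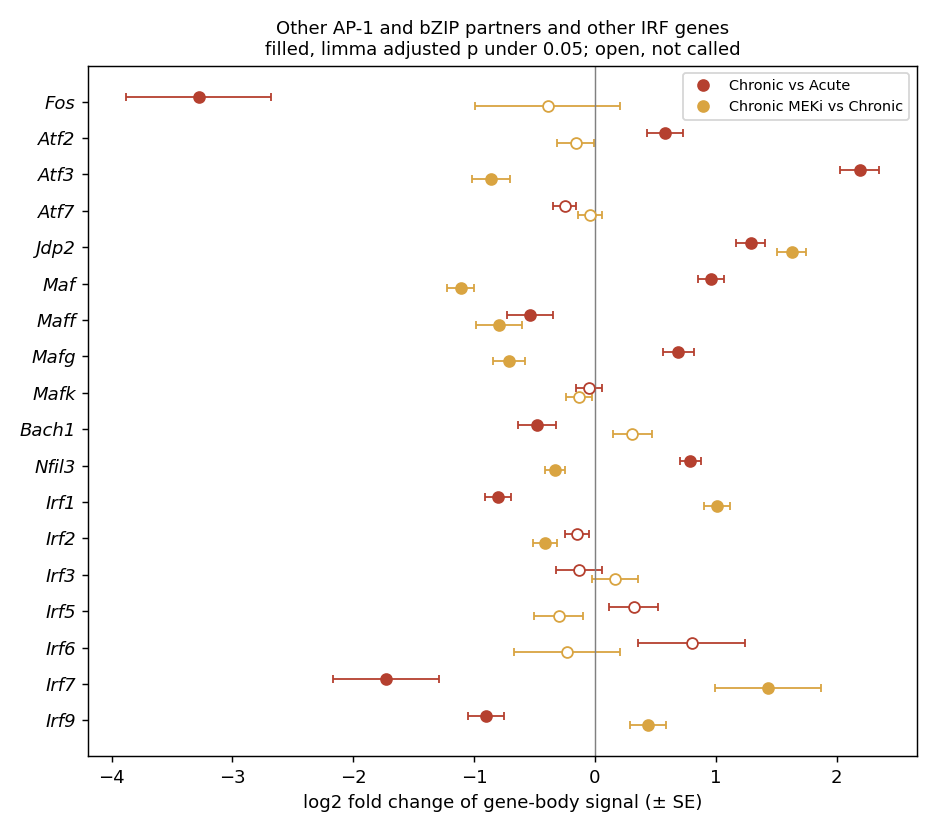
Log2 fold change of gene-body signal (± SE, from limma) of the 11 other AP-1 and basic leucine zipper genes and the 7 other IRF genes that were tested, for chronic against acute and ChronicMEKi against chronic libraries; filled points had an adjusted p under 0.05. Jdp2 lies above 0 in both comparisons (1.29 and 1.63), while Irf1, Irf7 and Irf9 lie below 0 in the first and above it in the second.

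Of 8 kinase genes that act on AP-1 (ERK, JNK and the kinases above them), none was called under MEK inhibition, and 1 rose and 2 fell between acute and chronic libraries. Over all genes, 17.6% were called in the first comparison and 33.9% in the second. Mapk3, which encodes ERK1, rose from 67.9, 103.6 and 56.4 to 214.2, 241.9 and 229.3 (log2 fold change 1.57, SE 0.34, limma adjusted p = 0.00129). Mapk8, which encodes JNK1 (-0.37, limma adjusted p = 0.0367), and Map2k4 (-0.25, limma adjusted p = 0.0438) fell. Leaving out acute replicate 1 or 3 or chronic replicate 2 or 3 ended the call of Mapk8 (limma adjusted p up to 0.1). That of Map2k4 ended without replicate 1 or 3 of any group (limma adjusted p up to 0.14). Between ChronicMEKi and acute libraries 1 of the 8, Mapk3, was called (1.62, limma adjusted p = 0.00139), beside 25.8% of all genes.

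Genes known from T cells to be controlled by these factors formed a list of 10, of which Il2, Il21 and Klrg1 did not pass the filter. Of the other 7, 5 rose and 2 fell between acute and chronic libraries, and 2 rose and 4 fell under MEK inhibition. Over all genes, 18% rose and 15.9% fell in the first comparison, and 9.93% rose and 7.65% fell in the second. Il10, an inhibitory cytokine, had signals of 1128, 784.7 and 1151 in acute, 11950, 14413 and 17249 in chronic, and 713.7, 662 and 797.8 in ChronicMEKi libraries. It was 14.2-fold higher in chronic than in acute libraries (log2 fold change 3.83, SE 0.15, limma adjusted p = 9.92e-12) and 19.8-fold lower in ChronicMEKi than in chronic ones (-4.31, SE 0.15, limma adjusted p = 1.04e-11), and the ChronicMEKi libraries overlapped the acute ones.

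Prdm1, which encodes the repressor BLIMP1 and is a direct target of IRF4, had signals of 328.5, 334.3 and 342.4 in acute, 1993, 2720 and 2428 in chronic, and 599.2, 726.5 and 683.3 in ChronicMEKi libraries. It followed the order of Irf4, with ChronicMEKi libraries between the others (2.8, -1.81 and 0.98 for chronic against acute, ChronicMEKi against chronic, and ChronicMEKi against acute). Ifng, the effector cytokine, rose by 3.69 on the log2 scale in chronic and was still 2.46 above acute in ChronicMEKi libraries. Ctla4, an inhibitory receptor, went the other way: 3745, 3149 and 4060 in acute, 837.6, 919.2 and 1170 in chronic, and 3722, 3700 and 4399 in ChronicMEKi libraries (-1.91 and then 2.02). Tbx21, which encodes T-bet, rose under MEK inhibition from 4758, 4782 and 4313 to 13433, 11551 and 13083 (1.46, SE 0.093, limma adjusted p = 3.07e-09). Between ChronicMEKi and acute libraries 5 of the 7 were higher and 1, Il10 (-0.48), was lower, beside 14.4% and 11.5% of all genes. Gzmb, a cytotoxic granule protease, was the weakest of those named as higher (0.36, limma adjusted p = 0.0288): its sign turned with library totals (-0.02, limma adjusted p = 0.893), and the call was lost without any acute library or ChronicMEKi replicate 1 or 3 (limma adjusted p up to 0.279).

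**Figure D5:**
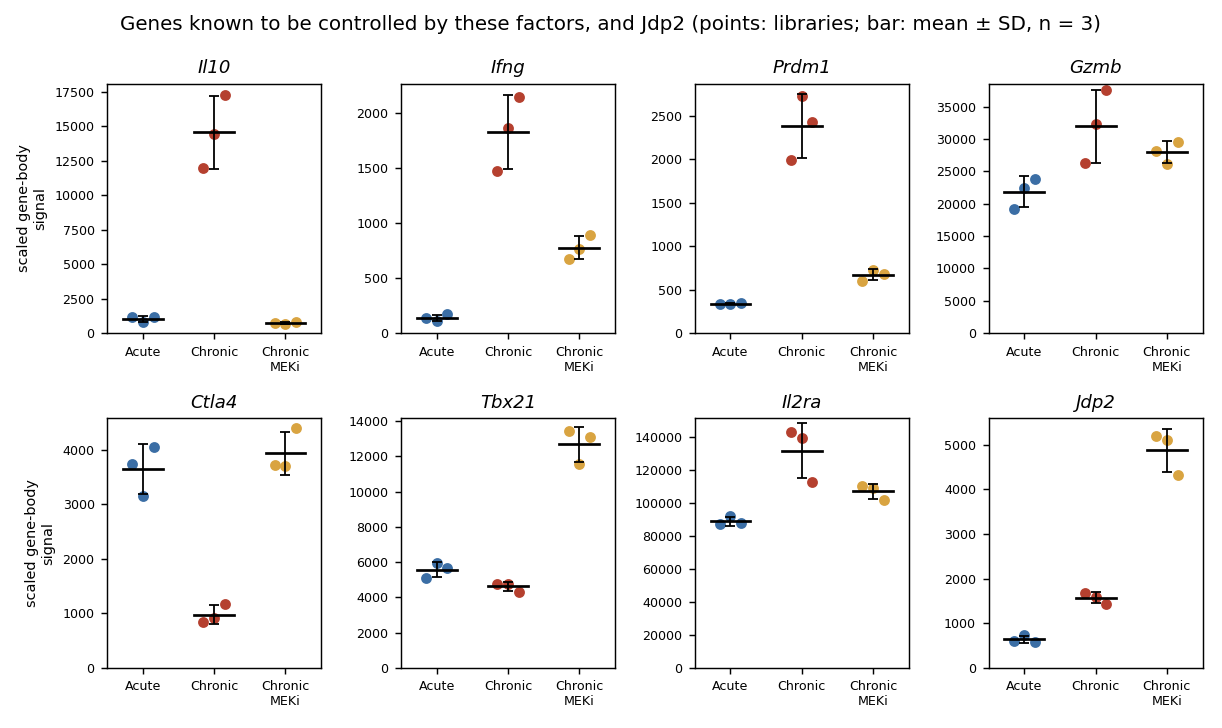
Scaled gene-body signal (linear axis from 0) in each library for the 7 tested genes known to be controlled by these factors and for Jdp2, with 3 points per group and a bar at the mean ± SD. Il10 and Prdm1 were highest in the chronic libraries, Ctla4 was lowest there (837.6 to 1170), and Jdp2 and Tbx21 were highest in ChronicMEKi libraries.

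For each member, the gene with the most similar pattern was sought among 12372 tested genes by Pearson correlation of log2 gene-body signal over the 9 libraries. These libraries share their grouping, so correlations are high for many genes and are descriptions. Prdm1 was nearest to Irf4 (0.995), with 148 genes over 0.95. Adamts14 was nearest to Batf (0.993), with signals of 330.4, 270.1 and 200.4 in acute, 4861, 5329 and 3285 in chronic, and 773.8, 641.6 and 537.4 in ChronicMEKi libraries. Capn5 was nearest to Irf8 (0.995), Rasa3 to Bach2 (0.997), Phldb1 to Fosl1 (0.997), B4galt5 to Batf3 (0.994), Fam57b to Fosl2 (0.992) and Phlda1 to Junb (0.987). Capn5 signals were 560.9, 723.7 and 438.9 in acute, 100.3, 108.8 and 96.7 in chronic, and 1037, 1086 and 1110 in ChronicMEKi libraries, a wider range than that of Irf8. For Jund, Lrp10 (0.983) was nearest and 5 genes exceeded 0.95, and for Jun the nearest gene, Adal, reached 0.889.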

How the data were processed

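Nascent RNA of 9 libraries in 3 groups was analysed. The authors deposited signal per transcript in 2 tables, read here from their names as gene body and pause region. The submitters' processing notes name FastQC 0.12.0, Trim Galore 0.6.10, STAR 2.7.0a, SAMtools 1.19.2, deepTools 0.1.9, R 4.1.2 and build mm10. Region coordinates, bin size and use of strand are not given in the sources used here. Low values were whole multiples (within 0.01 of a step) of one step per library, shared by both tables. Nearly empty transcripts often held several steps, so the deposited signal cannot be read as counts of reads, depth in reads is unknown and no counting interval is given. Rows (118482 per table) were matched to GENCODE M21 (GRCm38) by transcript, 117346 with their version and 383 without; the other 753 were not used. All matched rows were of chromosomes 1 to 19. Each of 37022 genes was represented by its row of largest mean signal over the gene body.

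A gene was tested where 3 or more libraries had a signal of 50 or more. Libraries were scaled over those genes by a trimmed mean of log ratios without weights, leaving out 30% of the log ratios and 5% of the mean levels at either end. One limma model (limma 3.58.1, R 4.3.3) of log2(signal + 5), with a mean per group over the 9 libraries, intensity trend and robust moderation, gave fold changes, which are understated for weak genes. P-values were adjusted by Benjamini and Hochberg over all genes of a comparison, with a threshold of 0.05. Pausing used the difference of log2(signal + 5) between the regions. The fits were also run on simulated data in which few genes changed, and only in chronic libraries. Those data cannot show how the scaling acts where many genes change. Python 3.11.15 with pandas 2.3.3 did the joining of tables.

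All members are named in each comparison, with up to 4 genes of each other list, those with the largest changes among called genes whose groups did not overlap, and the gene most like each member. Genes named outside this rule were chosen after their values were seen. Members, lists and markers were chosen with earlier results of these data known. One B cell marker is not reported here. Alternatives covered scaling, pseudocount (0.5 and 20), filter (200, or none), transcript row, moderation, libraries fitted, a replicate block and leaving out each library. One, the trimmed mean over all genes with signal, was chosen after seeing the data.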

Additional observations from a re-analysis of the deposited data

How the results depend on the processing

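Between chronic and acute libraries the gene-body calls of Batf, Batf3, Irf4, Irf8, Bach2, Fosl1 and Fosl2 kept their direction and their side of the threshold under all 21 alternatives, as did those of Batf, Irf4, Irf8, Bach2, Fosl1 and Fosl2 between ChronicMEKi and chronic libraries. Their lowest and highest log2 fold changes were 1.95 and 2.54 for Batf, 1.68 and 2.22 for Irf4, and -1.24 and -0.68 for Irf8 in the first comparison, and -1.59 and -1.34, -1.54 and -1.34, and 1.05 and 1.25 in the second. Depth in reads is unknown, and weak pause-region signal (Batf, Batf3 and Fosl2) limits what could be called there. The cause of the changes below was not tested; the minimum of 200 and leaving out libraries tested fewer genes or samples, and no filter tested more genes (34470 in the gene body and 28462 in the pause region).

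Scaling by library totals shifted the median of all genes by -0.49 (chronic against acute), 0.11 (ChronicMEKi against chronic) and -0.38 (ChronicMEKi against acute), the deposited scale by -0.47, 0.13 and -0.34, and totals without ribosomal RNA-like rows by -0.16, -0.01 and -0.17. The calls split into 1096 higher and 6846 lower, 1769 and 741, and 955 and 4965 with totals, into 1134 and 6713, 1979 and 721, and 1023 and 4542 on the deposited scale, and into 2096 and 3759, 1468 and 1217, and 1572 and 3151 without ribosomal RNA-like rows. The trimmed mean over all genes with signal gave 2603 and 2129, 1005 and 1207, and 1704 and 1786. Under each of the first 3 scalings 2 members in place of 1 were lower in ChronicMEKi than in acute libraries, and 5 in place of 6 were higher; with totals and on the deposited scale Irf8 and Fosl2 lost and Jund gained a call.

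Values whose sign reversed lay between -0.44 and 0.23, and none of them was called. With library totals, gene-body values were 0.08 for Jun between ChronicMEKi and chronic libraries and, between ChronicMEKi and acute libraries, -0.01 for Irf8, -0.25 for Fosl1 and -0.02 for Gzmb. In the pause region they were -0.44 for Jund and -0.4 for Fosl2 (chronic against acute), 0.15 for Jun (ChronicMEKi against chronic), and -0.21 for Irf8 and -0.09 for Junb (ChronicMEKi against acute), and pausing was 0.07 for each of Irf4, Jun and Junb (ChronicMEKi against chronic). On the deposited scale Jun was at 0.1 in the gene body and 0.09 in the pause region between ChronicMEKi and chronic libraries, and Fosl1 at -0.21 between ChronicMEKi and acute. Pausing was then 0.12 for Irf4 and 0.03 for Jund (chronic against acute), and 0.11 for Irf4, 0.23 for Irf8 and 0.2 for Jund (ChronicMEKi against acute). Without ribosomal RNA-like rows, ChronicMEKi against acute gave -0.04 for Fosl1 in the gene body, and 0.05 for Irf8 and 0.02 for Jund in pausing. A pseudocount of 20 gave -0.03 for Batf pausing, and the row with the longest span gave -0.15 for Junb, both for ChronicMEKi against acute.

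Genes called in the pause region between chronic and acute libraries numbered 1723 with library totals, 455 with a minimum of 200 and 494 without a filter, in place of 823. Without a filter there were 107 for ChronicMEKi against chronic and 206 for ChronicMEKi against acute, in place of 230 and 457, and 110 and 232 without trend and robust moderation. Gene-body calls without a filter were 1637 and 2642 in the same comparisons. Pausing calls between chronic and acute libraries were 4 with library totals, 2 on the deposited scale, 1 with a pseudocount of 0.5, 22 with 20, 3 with a minimum of 200, 24 without a filter and 1 with only the groups compared. There was 1 such call for ChronicMEKi against acute with a pseudocount of 20, and there were 2 for ChronicMEKi against chronic without a filter.

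Leaving out single libraries gave 545 to 750 pause-region calls between chronic and acute, 109 to 279 between ChronicMEKi and chronic, and 233 to 512 between ChronicMEKi and acute libraries. The lowest came without acute replicate 1, ChronicMEKi replicate 3 and ChronicMEKi replicate 2, respectively. Pausing calls between chronic and acute libraries ran from 0 to 1, and members lower in ChronicMEKi than in acute libraries from 1 to 2. Values that turned ranged from -0.03 to 0.21 for Fosl1 (gene body, ChronicMEKi against acute; lowest without acute replicate 1), and from -0.09 to 0.27 for Jund and -0.2 to 0.55 for Fosl2 (pause region, chronic against acute; lowest without acute replicate 3). Between ChronicMEKi and chronic libraries Jun ranged from -0.09 to 0.04 in the gene body, -0.37 to 0.2 in the pause region and -0.32 to 0.16 in pausing (highest without chronic replicate 2). Pausing there ranged from -0.12 to 0.02 for Junb (highest without ChronicMEKi replicate 1) and -0.17 to 0.1 for Irf4 (highest without ChronicMEKi replicate 3).

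Group labels share replicate numbers, with no statement that a number marks a shared source. Deviations of same-numbered libraries correlated at 0.09, 0.1 and 0.07 between chronic and acute, at -0.05, -0.15 and 0.09 between ChronicMEKi and chronic, and at -0.36, -0.53 and -0.01 between ChronicMEKi and acute libraries. Not all exceeded 0.1, so numbers were not taken as pairs. Only between chronic and acute did all match their own number best. Between ChronicMEKi and acute, differing numbers gave -0.37 to 0.51 (1 with 2), and no fit modelled this. With the replicate block, 5497, 2956 and 4263 genes were called in the gene body, 865, 260 and 514 in the pause region and 0, 0 and 0 in pausing, and the call of Etv4 between chronic and acute libraries was lost (limma adjusted p = 0.052), while the members' gene-body counts stayed at 6 and 2, 1 and 6, and 6 and 1.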

Other observations

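Genes of the MEK-ERK output list did not all follow the members that rose under chronic stimulation. Etv5, an ETS factor of the ERK pathway, had gene-body signals of 117.2, 88.5 and 99.9 in acute, 631.3, 852.7 and 602.5 in chronic, and 22.4, 71.3 and 53.1 in ChronicMEKi libraries, and Spry2, a feedback inhibitor, rose 3.82-fold between acute and chronic libraries. Dusp6 had overlapping acute and chronic libraries (log2 fold change -0.06), as had Spred1 (0.14). Of the 7 genes, 4 were higher and 1 was lower in chronic than in acute libraries by limma, beside 18% and 15.9% of all genes. In ChronicMEKi against acute libraries 1 of the 7 was higher and 4 were lower, beside 14.4% and 11.5% of all genes. Among these calls, the rise of Etv4 between acute and chronic libraries was lost in 8 of 20 alternatives. These included library totals (1.23, limma adjusted p = 0.0951) and leaving out any chronic library or acute replicate 1 or 2. Etv4 would not have passed the filter without its chronic libraries, so this rise also rests on the group that let it be tested. The call of Etv5 between ChronicMEKi and acute libraries was lost in 6 of 21, among them leaving out acute replicate 1 or 3 or ChronicMEKi replicate 1 (-0.72, limma adjusted p = 0.134). Egr1, an immediate-early factor, was 13.3-fold lower in ChronicMEKi than in acute libraries.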
